A study of Homo sapiens with 6 samples.

Results

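The BCL2 family of apoptosis genes was described here by 10 genes picked by name out of the 61860 rows of the count table, and all 10 passed the filter on low counts that left 17372 genes to test. They comprise the anti-apoptotic genes MCL1, BCL2L1, BCL2L2 and BCL2A1, the effector genes BAX and BAK1, and the BH3-only genes BBC3, PMAIP1, HRK and BCL2L11. RNA had been sequenced from 5637, an established human bladder cancer cell line grown in medium with serum. There were 3 libraries labelled siYTHDC1 and 3 labelled siNC, the control, and the comparison asks which transcripts differ when YTHDC1, a nuclear reader of N6-methyladenosine (m6A) in RNA, is targeted. All 6 samples carry the same treatment label, which names both a transfection and an infection, and their descriptions mention a plasmid, so the reagent is not clear from them.

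Proteins of the BCL2 family decide whether the outer mitochondrial membrane is permeabilised, the step that frees cytochrome c and starts the caspase cascade. BAX and BAK1 form the pores, the anti-apoptotic proteins hold BAX, BAK1 and the BH3-only proteins in check, and BH3-only proteins relay stress signals by binding either kind of partner. Epithelial tumour cells commonly rely on MCL1 and BCL-XL, the long product of BCL2L1, for survival. The measurements below are of RNA per gene, and protein was not analysed here.

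The libraries held 33223480 to 35607577 counts each, and 24308 to 24470 genes had at least 1 count. The row of YTHDC1 did not follow the labels. It had 161, 18 and 14 counts in the libraries labelled siYTHDC1, against 50, 786 and 55 in those labelled siNC, so siYTHDC1 replicate 1 lay above 2 of the 3 siNC libraries. YTHDC1 was lower by label (-2.20 ± 0.69 on the log2 scale, SE; edgeR adjusted p = 0.00864), but it stood at 0.31 without siNC replicate 2 (edgeR adjusted p = 0.691). Every direction below is therefore that of libraries labelled siYTHDC1 relative to libraries labelled siNC. Of 14 urothelial and epithelial markers 12 were tested. The summed level was 6636 to 6765 counts per 1000000 counts of the library, TMM-scaled (CPM), in the siYTHDC1 libraries and 11679 to 11850 CPM in the siNC libraries. Most of it was keratin RNA, with KRT19 alone at 2607 CPM in siYTHDC1 libraries and 4442 CPM in siNC libraries. Of the 12, 8 fell and 2 rose. The risen ones were EPCAM (0.14 on the log2 scale) and PPARG (0.98), and CDH1 was not called (-0.01, edgeR adjusted p = 0.818). Of 3 fibroblast markers tested 1 rose and none fell, with sums of 92.3 to 97.1 CPM in siYTHDC1 libraries and 78.9 to 84.9 CPM in siNC libraries, nearly all of it COL1A1, and DCN was listed at 0. The immune markers summed to 4.71 to 6.50 CPM in siYTHDC1 libraries and 6.62 to 8.03 CPM in siNC libraries, of which 1 was tested and fell, and CD3E and CD68 were listed at 0 in every library. The endothelial markers summed to 6.00 to 7.51 CPM in siYTHDC1 libraries and 5.58 to 7.99 CPM in siNC libraries, and 1 of 3 tested fell. The immune marker that fell, CD14, lost its call without siYTHDC1 replicate 2, siYTHDC1 replicate 3 or siNC replicate 3, and the endothelial one, VWF, without siYTHDC1 replicate 1 or 2 or siNC replicate 1 or 2. The part of these markers in the results below was not tested.

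Of the 10 family genes, 5 rose in the libraries labelled siYTHDC1, 3 fell and 2 were not called at an edgeR adjusted p under 0.05. The risen genes were BCL2A1, HRK, BCL2L2, BBC3 and PMAIP1, and their changes ran from 1.41-fold to 3.31-fold. MCL1 fell by 17.0%, BAX fell by 12.1% and BAK1 fell by 17.8%. Over all of the data 53.4% of the genes tested were called, 26.3% higher and 27.1% lower, so a count of 8 called among 10 stands against a background in which most genes moved. The groups did not overlap in those 8 genes, and in 59.3% of all genes tested. The median log2 fold change of the 10 was 0.23, and that of all genes tested was 0.00. By size, the change of BCL2A1 was greater in absolute log2 value than that of 97.9% of tested genes, that of HRK greater than 96.8% and that of BCL2L2 greater than 93.4%. In such bulk RNA a change in the share of cells and a change in RNA per cell cannot be told apart.

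**Figure D1:**
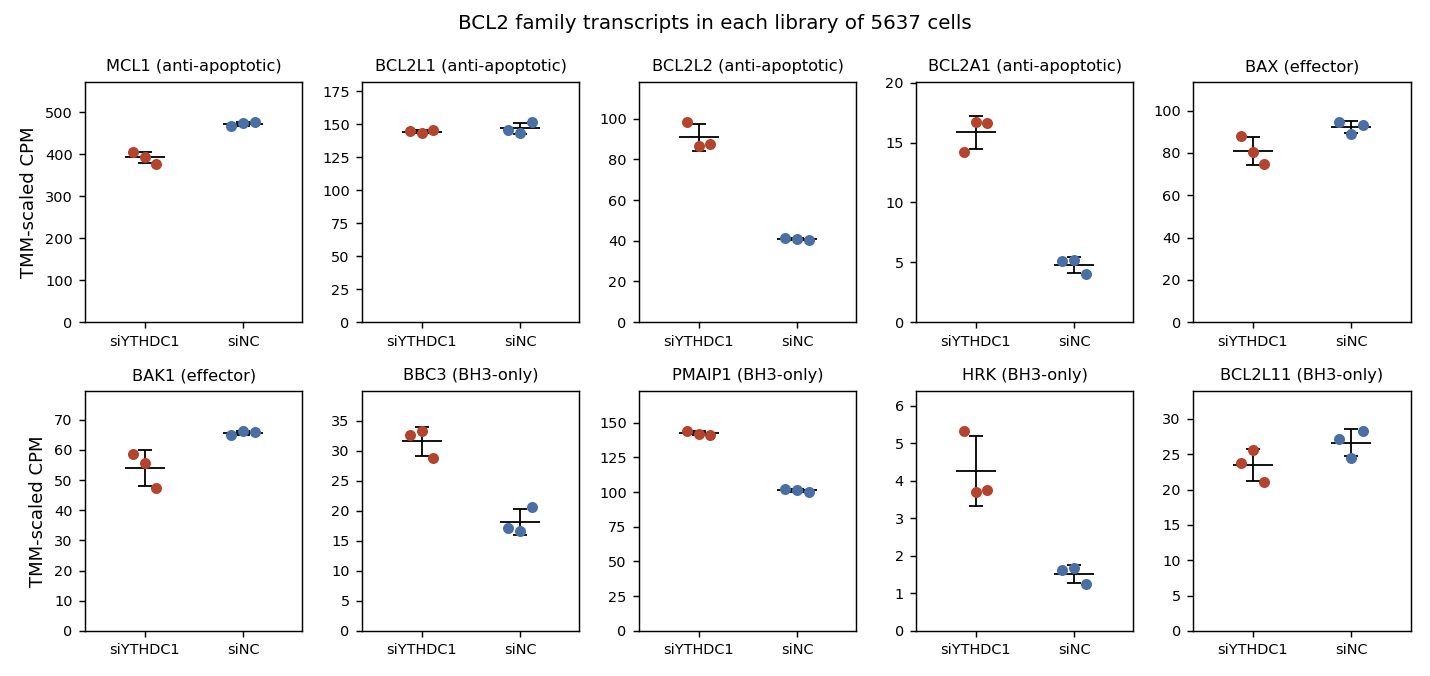
TMM-scaled level (CPM, y axis from 0) of each BCL2 family gene in the 3 libraries labelled siYTHDC1 (left, red points) and the 3 labelled siNC (right, blue points); bars give the mean and SD. BCL2L2, BCL2A1, BBC3, PMAIP1 and HRK sit higher in every siYTHDC1 library than in any siNC library, MCL1, BAX and BAK1 sit lower, and the points of BCL2L1 and BCL2L11 overlap.

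The stretches upstream of the start sites are shown for 3 of the risen genes and for both effector genes, which fell. The letters can so be read beside the changes. These genes are grouped by direction only. They come from RefSeq (GRCh38.p14), which gave a window for 8 of the 10 genes. Only bases that lie outside annotated exons of GENCODE release 29 are printed, 5′ to 3′ on the strand of the gene. Capitals mark matches, on either strand, to the CCAAT box (CCAAT), the GC box (GGGCGG), the core of the cyclic AMP response element (TGACGT), an AP-1 site (TGANTCA), the E-box (CACGTG), a composite word bound by ATF4 and CHOP dimers (TGATGCAA) or a κB site.
HRK, chr12:116881442-116881691, minus strand, risen: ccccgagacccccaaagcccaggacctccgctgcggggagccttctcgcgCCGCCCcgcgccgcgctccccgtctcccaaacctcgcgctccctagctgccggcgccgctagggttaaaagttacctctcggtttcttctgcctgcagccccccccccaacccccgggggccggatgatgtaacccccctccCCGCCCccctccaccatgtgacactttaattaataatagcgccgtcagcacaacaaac
PMAIP1, chr18:59899746-59899947, plus strand, risen: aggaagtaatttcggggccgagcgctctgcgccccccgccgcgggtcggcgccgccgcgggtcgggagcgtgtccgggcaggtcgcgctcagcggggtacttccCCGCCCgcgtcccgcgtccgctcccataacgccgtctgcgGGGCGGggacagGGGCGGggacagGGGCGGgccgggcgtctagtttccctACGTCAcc
BBC3, chr19:47232767-47232917, minus strand, risen: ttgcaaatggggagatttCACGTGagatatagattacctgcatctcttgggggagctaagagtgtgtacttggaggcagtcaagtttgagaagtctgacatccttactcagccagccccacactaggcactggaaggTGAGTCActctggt
BAX, chr19:48954625-48954814, plus strand, fallen: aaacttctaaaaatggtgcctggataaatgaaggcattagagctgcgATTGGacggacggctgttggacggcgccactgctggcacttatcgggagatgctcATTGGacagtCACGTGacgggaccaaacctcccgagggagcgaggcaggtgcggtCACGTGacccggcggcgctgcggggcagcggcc
BAK1, chr6:33580294-33580526, minus strand, fallen: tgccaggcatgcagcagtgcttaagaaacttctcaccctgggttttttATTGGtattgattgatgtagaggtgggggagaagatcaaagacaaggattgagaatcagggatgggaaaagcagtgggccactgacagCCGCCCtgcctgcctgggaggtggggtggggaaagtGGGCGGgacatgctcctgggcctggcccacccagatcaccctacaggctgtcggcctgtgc

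Over the 250 bases before the start, GC content was 66.4% for HRK, 72.8% for PMAIP1, 49.2% for BBC3, 62.8% for BAX and 58% for BAK1, against a median of 58% over 35097 RefSeq windows. PMAIP1 held 4 GC boxes and 1 cyclic AMP response core, whose first base lies 56 bases before the start. HRK and BAK1 held 2 GC boxes each, BAX 1 and BBC3 0, so 4 of these 5 windows had one. That of BAX lies outside its printed stretch. A GC box occurs in 42.6% of all windows and that core in 7.1%. Among family windows not printed, that of BCL2L11, which was not called, held 3 GC boxes. Those of BCL2L1, not called, and BCL2A1, risen, held none. The whole BAX window held 4 E-boxes and the BBC3 window 1, a word found in 6.34% of windows. BBC3 also had 1 AP-1 match, in the printed stretch, where 6.57% of windows have one. A κB match occurs in 5.2% of windows but in none of these 5. CCAAT boxes, present in 32% of windows, were found 2 times in BAX and once each in BAK1 and BBC3, the last outside the printed stretch. The BCL2A1 window lies wholly in an annotated exon of a longer transcript, so only a short site is given. It was picked, after all words had been searched in the family windows, because its word is scarce: the ATF4-CHOP composite occurs in 0.772% of windows. No other family window held it, those of the risen HRK, PMAIP1 and BBC3 included. No other word searched, the κB site among them, matched in the BCL2A1 window.
BCL2A1, chr15:79971242-79971269, minus strand, risen, the composite word in capitals: tattataaagTGATGCAAacagaaattc
A match of letters is not a measured binding site.

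The anti-apoptotic genes moved in opposite directions. BCL2A1 (ENSG00000140379, hg38 15:79960889-79971446, as for the positions that follow), which encodes BFL-1, an MCL1-like protector best known as an NF-κB target, had the largest rise of the 10. Its level was 14.2, 16.7 and 16.6 CPM in siYTHDC1 libraries and 5.08, 5.22 and 4.04 CPM in siNC libraries. The groups lay far apart and replicates close together. On the log2 scale BCL2A1 rose by 1.73 ± 0.12 (SE; edgeR adjusted p = 1.21e-12), or 3.31-fold.

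BCL2L2 (ENSG00000129473, 14:23298790-23311759) encodes BCL-W, a BCL-XL relative. It had 98.3, 86.5 and 87.7 CPM in siYTHDC1 libraries and 41.4, 40.8 and 40.4 CPM in siNC libraries. The siNC libraries were close to each other and far below all siYTHDC1 libraries. The rise was 1.15 ± 0.05 on the log2 scale (SE; edgeR adjusted p = 2.00e-16), or 2.22-fold. Of its exonic bases 19.4% are shared on the same strand with the read-through gene BCL2L2-PABPN1, which had 3, 9 and 10 counts in siYTHDC1 libraries and 2, 5 and 1 counts in siNC libraries. A further 4.92% lie opposite exons of PPP1R3E, which itself rose by 0.64 ± 0.12 (SE; edgeR adjusted p = 6.92e-05). PPP1R3E had 416, 315 and 395 counts in siYTHDC1 libraries and 285, 221 and 228 counts in siNC libraries, several times fewer than the 2881 to 3434 and 1398 to 1466 counts of BCL2L2 in the same groups. The sources used here do not say whether the counting used the strand.

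MCL1 (ENSG00000143384, 1:150574551-150579738), a short-lived protector that many stressed cells lose first, was the most abundant of the 10. It had 405, 394 and 378 CPM in siYTHDC1 libraries and 467, 475 and 476 CPM in siNC libraries. All siYTHDC1 libraries lay below all siNC libraries, by a modest margin. MCL1 changed by -0.27 ± 0.03 on the log2 scale (SE; edgeR adjusted p = 6.55e-09), more than 45.9% of tested genes by absolute value. BCL2L1 (ENSG00000171552, 20:31664452-31723989) was not called. It had 145, 143 and 145 CPM in siYTHDC1 libraries and 146, 143 and 151 CPM in siNC libraries, so the groups overlapped. The difference was -0.02 ± 0.04 on the log2 scale (SE; edgeR adjusted p = 0.585), with a 95% interval of -0.10 to 0.05. Although 43.0% of its exonic bases lie opposite the antisense gene ABALON, ABALON had 3, 0 and 1 counts in siYTHDC1 libraries and 0, 0 and 1 in siNC libraries.

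Both pore-forming genes fell by small amounts. BAK1 (ENSG00000030110, 6:33572547-33580293), whose product sits in the outer membrane before any signal, had 58.6, 55.8 and 47.3 CPM in siYTHDC1 libraries and 64.9, 66.2 and 65.7 CPM in siNC libraries. Its siNC libraries were tightly grouped, whereas siYTHDC1 replicate 3 was well below its fellows. BAK1 changed by -0.28 ± 0.06 on the log2 scale (SE; edgeR adjusted p = 0.000209), and by -0.20 without that library (edgeR adjusted p = 0.00160). Of the 75-base words of BAK1, 7.45% recur in other transcripts, those of the pseudogene BAK1P1, and how such reads were counted is not known here.

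BAX (ENSG00000087088, 19:48954815-48961798), which moves from the cytosol to mitochondria when activated, had 87.9, 80.4 and 74.8 CPM in siYTHDC1 libraries and 94.5, 88.9 and 93.1 CPM in siNC libraries. The groups were barely separated, siYTHDC1 replicate 1 lying just under siNC replicate 2. BAX changed by -0.19 ± 0.05 on the log2 scale (SE; edgeR adjusted p = 0.00231), and by -0.13 without siYTHDC1 replicate 3, again the lowest (edgeR adjusted p = 0.0167). By absolute value 32.8% of tested genes changed less than BAX.

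Among the 4 BH3-only genes picked, 3 rose and none fell, where 26.3% of all genes tested rose and 27.1% fell. Of BH3-only genes outside the 10, BMF and BAD fell and BID rose, as given below. BIK, named after its values were seen, was not called (0.10 ± 0.06, SE, edgeR adjusted p = 0.196). HRK (ENSG00000135116, 12:116856144-116881441), which encodes Harakiri, an inhibitor of BCL-XL best studied in neurons, was the scarcest of the 10 genes. It had 186, 123 and 128 counts in siYTHDC1 libraries and 57, 58 and 43 counts in siNC libraries, which is 5.32, 3.69 and 3.74 CPM against 1.61, 1.68 and 1.24 CPM. Every siYTHDC1 library was above every siNC library, with siYTHDC1 replicate 1 the highest. HRK rose by 1.49 ± 0.23 on the log2 scale (SE; edgeR adjusted p = 3.52e-06), with the widest error of the family, and by 1.30 without that library (edgeR adjusted p = 0.000128).

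BBC3 (ENSG00000105327, 19:47220822-47232766) encodes PUMA, which binds all the main anti-apoptotic proteins. It had 32.6, 33.3 and 28.8 CPM in siYTHDC1 libraries and 17.1, 16.7 and 20.7 CPM in siNC libraries. Every siYTHDC1 library was well above siNC replicate 3, the highest of its group. That is a rise of 0.80 ± 0.08 on the log2 scale (SE; edgeR adjusted p = 6.26e-09), or 1.74-fold.

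PMAIP1 (ENSG00000141682, 18:59899948-59904306) encodes NOXA, which binds MCL1 and BFL-1 and is induced by ATF4 under stress. It had 144, 142 and 141 CPM in siYTHDC1 libraries and 102, 102 and 100.04 CPM in siNC libraries. Replicates of both groups were close together, and the groups were far apart. The rise was 0.49 ± 0.04 on the log2 scale (SE; edgeR adjusted p = 6.09e-12), or 1.41-fold.

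BCL2L11 (ENSG00000153094, 2:111119378-111168447) encodes BIM, a BH3-only protein that activates BAX and BAK1 directly. It had 23.8, 25.6 and 21.1 CPM in siYTHDC1 libraries and 27.2, 24.5 and 28.3 CPM in siNC libraries, and the groups overlapped. The difference was -0.18 ± 0.08 on the log2 scale (SE; edgeR adjusted p = 0.0564), with an unadjusted 95% interval of -0.35 to -0.02. This gene sat at the threshold: it passed without siNC replicate 2 (-0.24; edgeR adjusted p = 0.0232) and without siYTHDC1 replicate 2 (-0.25; edgeR adjusted p = 0.0230), and over all settings the adjusted p ran up to 0.269. Of its exonic bases 10.9% lie opposite MIR4435-2HG, an abundant lncRNA that was not called (0.15 ± 0.07, SE; edgeR adjusted p = 0.0592).

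**Figure D2:**
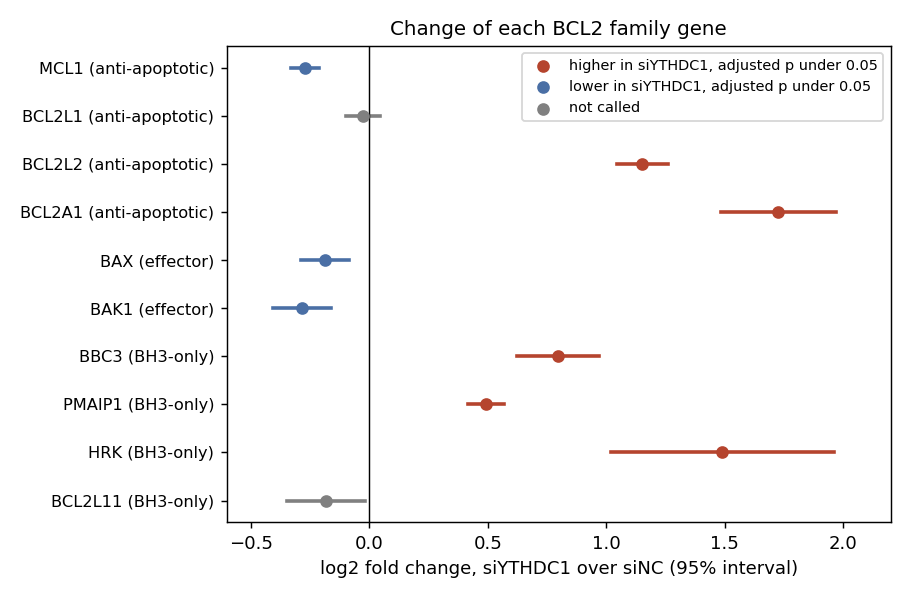
Log2 fold change (siYTHDC1 over siNC, x axis) of each BCL2 family gene as a point with its 95% interval as a line, from the edgeR fit over all genes; red and blue mark genes called higher and lower at an adjusted p under 0.05, grey those not called. BCL2A1, HRK and BCL2L2 lie beyond 1, BBC3 and PMAIP1 between 0.49 and 0.80, and the fallen genes between -0.28 and -0.19.

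Levels can be compared between genes only per length, here as TMM-scaled reads per 1000 exonic bases and 1000000 reads (RPKM). In siYTHDC1 libraries the order of mean RPKM was MCL1 (89.8 ± 3.19, SD, n = 3), PMAIP1 (63.7 ± 0.62), BCL2L1 (43.6 ± 0.38), BAX (31.3 ± 2.53), BAK1 (24.4 ± 2.65), BCL2L2 (21.7 ± 1.55), BCL2A1 (14.6 ± 1.29), BBC3 (9.93 ± 0.76), BCL2L11 (3.52 ± 0.34) and HRK (0.62 ± 0.14). Libraries of BAK1 and BCL2L2 overlapped in this order, and those of all other neighbours did not. In siNC libraries MCL1 (108 ± 1.10 RPKM, SD, n = 3), PMAIP1 (45.3 ± 0.48), BCL2L1 (44.3 ± 1.25), BAX (35.6 ± 1.12), BAK1 (29.7 ± 0.31) and BCL2L2 (9.76 ± 0.12) came first, in the same order. BBC3 (5.71 ± 0.69) stood above BCL2A1 (4.39 ± 0.59), BCL2L11 (4.00 ± 0.30) and HRK (0.22 ± 0.03). There PMAIP1 overlapped BCL2L1 and BCL2A1 overlapped BCL2L11. By this measure BCL2A1 stood above BBC3 in siYTHDC1 libraries and below it in siNC libraries. The order depends on the length used. Per 1000 bases of the longest transcript BBC3 stood above BCL2A1 in both groups (17.2 ± 1.32 and 15.3 ± 1.36 in siYTHDC1 libraries, 9.88 ± 1.19 and 4.63 ± 0.62 in siNC libraries). PMAIP1 (73.1 ± 0.71 in siYTHDC1 libraries, 52.0 ± 0.55 in siNC libraries) then came second in siYTHDC1 libraries but below BAX and BCL2L1 in siNC libraries, while MCL1 stayed first and HRK last in both.

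The summed anti-apoptotic RPKM did not separate the groups. It was 173, 169 and 166 in siYTHDC1 libraries and 165, 166 and 168 in siNC libraries. Its makeup did separate them: MCL1 held 53.6%, 53.2% and 51.9% of the sum in siYTHDC1 libraries and 64.6%, 65.3% and 64.9% in siNC libraries. BCL2L2 held 13.6%, 12.2% and 12.6% in siYTHDC1 libraries and 5.97%, 5.86% and 5.74% in siNC libraries. These sums weigh RNA only and were given no test.

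The summed RPKM of the 4 BH3-only genes picked was 79.0, 78.3 and 76.0 in siYTHDC1 libraries and 55.3, 54.7 and 55.7 in siNC libraries. BH3-only genes outside the 10, such as BMF and BAD, which fell, BID, which rose, and BIK, which was not called, were left out of this sum. These genes were not scarce. In siNC libraries BMF had 178 CPM over 5447 exonic bases, BID 128 over 4446, BIK 34.8 over 953 and BAD 34.3 over 1708. PMAIP1 had 101 CPM over 2235 exonic bases there. PMAIP1 made up most of the sum of the 4 picked genes in both groups. It held 81.5%, 81.0% and 83.2% in siYTHDC1 libraries and 82.5%, 83.2% and 80.4% in siNC libraries. Its share of the RNA of all BH3-only genes was not computed and would be smaller. The effector sum was 60.5, 56.3 and 50.3 in siYTHDC1 libraries and 65.9, 64.3 and 65.7 in siNC libraries. Set over the anti-apoptotic sum, the BH3-only sum was 0.459 ± 0.004 in siYTHDC1 libraries and 0.332 ± 0.003 in siNC libraries (SD, n = 3 each). That ratio covers only the 4 picked BH3-only genes. It was not computed with the genes left out and may differ less between groups with them. The effector sum over the anti-apoptotic sum was 0.328 ± 0.024 in siYTHDC1 libraries and 0.392 ± 0.006 in siNC libraries.

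**Figure D3:**
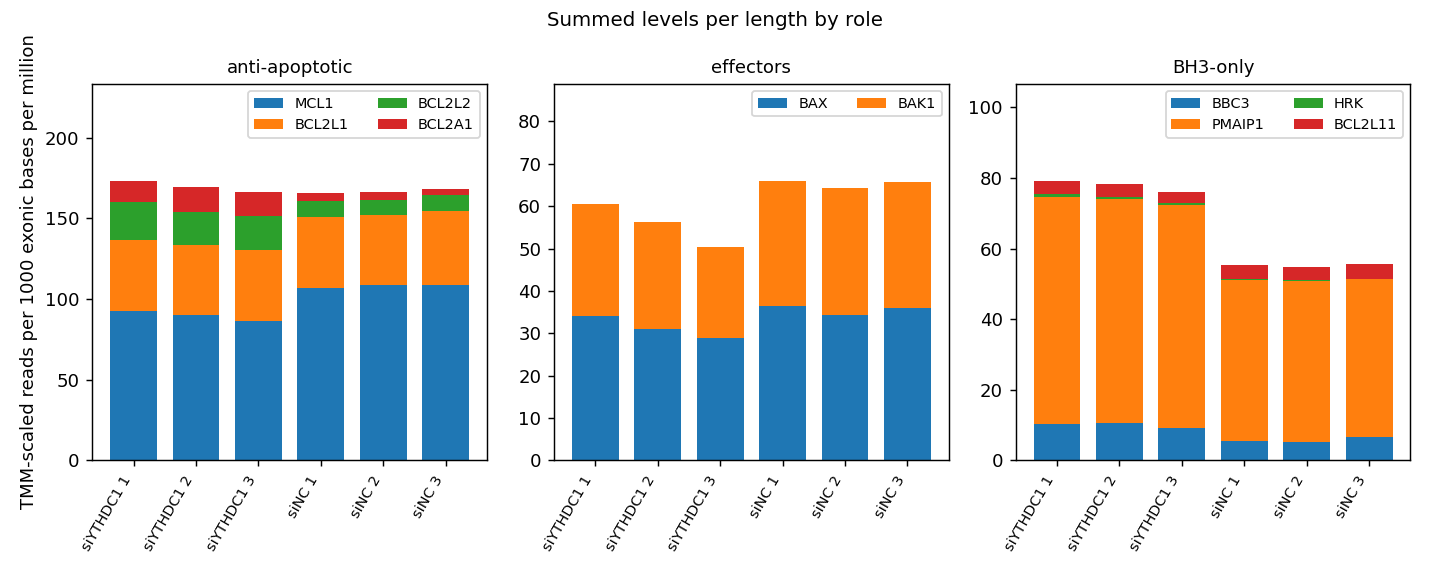
Stacked levels per length (RPKM, TMM-scaled, y axis from 0, with its own range in each panel) in each library, siYTHDC1 left of siNC. Only the picked anti-apoptotic, effector and BH3-only genes are stacked. The anti-apoptotic stacks are of like height, 166 to 173 against 165 to 168, with less MCL1 and more BCL2L2 and BCL2A1 in siYTHDC1 libraries, while the BH3-only stacks are taller there, 76.0 to 79.0 against 54.7 to 55.7.

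All 10 genes lay above the median of tested genes in m6A core words per base. The word GGACT, the DNA form of the most common m6A core, was counted in the longest protein-coding transcript of each gene, on its own strand. BBC3 had 7 in 1838 bases (3.81 per 1000 bases), BCL2L1 6 (2.30), BAK1 5 (2.26) and MCL1 7 (1.78). The lowest values were 0.97 per 1000 bases for BCL2A1 and 1.03 for PMAIP1, and the median over 13458 tested protein-coding genes was 0.94. The fallen genes BAK1, MCL1 and BAX (1.47) ranked below BBC3 and BCL2L1 and above the other 5, while the risen genes included both BBC3, the densest, and BCL2A1, the least dense. Whether any such word is methylated was not analysed here.

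Within the apoptosis genes, some followed the family members closely over the 6 libraries. By the Euclidean distance between log2 CPM centred on each gene's mean, among 48 genes, the nearest to PMAIP1 were BCL2L13 (0.07) and BID (0.08). The nearest to BCL2L2, BCL2A1 and HRK was BIRC3 in each case, at 0.41, 0.47 and 0.54. MCL1 was nearest to XIAP (0.13) and BNIP3 (0.13), and BAK1 to MCL1 (0.16) and XIAP (0.18). BAX was nearest to BECN1 (0.12) and MTCH2 (0.15), and BBC3 to CYCS (0.32) and MFN1 (0.37). The second nearest were BBC3 for BCL2L2 (0.53), HRK for BCL2A1 (0.68) and BCL2L2 for HRK (0.59). With 2 groups of libraries such distances mostly compare fold changes.

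The other BCL2 family genes were mixed as well. Of 14 listed, 11 were tested, 2 rose and 4 fell, with a median log2 fold change of -0.07. The called share of 54.5% was near the 53.4% of all genes tested. BID, which links death receptors to mitochondria, rose by 0.45 ± 0.03 (SE) with 175 ± 2.05 CPM in siYTHDC1 libraries and 128 ± 2.49 CPM in siNC libraries (SD, n = 3 each). BCL2L13 rose by 0.47 ± 0.04. The BH3-only gene BMF fell to 117 ± 1.03 CPM in siYTHDC1 libraries, against 178 ± 0.60 CPM in siNC libraries, a log2 fold change of -0.60 ± 0.03 (SE). BAD, another BH3-only gene, fell by 0.52 (log2). BMF-AS1 lies opposite 8.46% of the exonic bases of BMF, and GPR137 opposite 23.7% of those of BAD. BMF and BAD thus moved against BBC3, PMAIP1 and HRK, and BID moved with them. The mitophagy receptor genes BNIP3 (-0.36 ± 0.04) and BNIP3L (-0.21 ± 0.04), picked after seeing their values, also fell. BCL2 itself, also named after its values were seen, was scarce per CPM and not called, with 13.7, 13.3 and 11.1 CPM in siYTHDC1 libraries and 13.9, 13.9 and 12.2 CPM in siNC libraries (edgeR adjusted p = 0.579). The edgeR adjusted p of BID, BCL2L13, BMF and BAD was at most 1.73e-05.

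Downstream of the mitochondria, 2 of 11 apoptosome and caspase genes rose and 6 fell, with a median log2 fold change of -0.34. Among all genes tested 26.3% rose and 27.1% fell. CASP6, an executioner caspase, fell to 20.2 ± 1.17 CPM in siYTHDC1 libraries, against 28.0 ± 1.33 CPM in siNC libraries (SD, n = 3 each; log2 fold change -0.47 ± 0.08, SE). CYCS, which encodes cytochrome c and has many processed pseudogenes, rose to 204 ± 5.11 CPM in siYTHDC1 libraries, against 129 ± 5.21 CPM in siNC libraries (SD, n = 3 each). APAF1, CASP2, CASP9 and DFFB, which also fell, were named after their values were seen and lay between -0.39 and -0.34. DFFB lost its call without siYTHDC1 replicate 2 (-0.29), without siYTHDC1 replicate 3 (-0.32) and without siNC replicate 2 (-0.27). APAF1 and CASP9 encode the parts that assemble with cytochrome c into the apoptosome.

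The inhibitors of apoptosis and their antagonists divided too, with 2 of 7 genes of that list risen and 2 fallen (median 0.04). That is 57.1% called, near the 53.4% of all genes tested. BIRC3, which encodes the ubiquitin ligase cIAP2 and is a target of NF-κB, rose to 114 ± 6.09 CPM in siYTHDC1 libraries, against 42.0 ± 1.14 CPM in siNC libraries (SD, n = 3 each; log2 fold change 1.45 ± 0.05, SE; edgeR adjusted p = 2.15e-19). BIRC2, its paralog cIAP1, rose by 0.42 ± 0.03. The direct caspase inhibitor XIAP fell by 0.25 on the log2 scale and BIRC6 by 0.54. Of 9 mitochondrial partners 3 rose and 2 fell (median 0.00): the fusion genes MFN1 (0.58 ± 0.06, SE) and OPA1 (0.36 ± 0.05) and, named after its values were seen, VDAC2 (0.10 ± 0.04; edgeR adjusted p = 0.0353) rose, and VDAC3 (-0.45 ± 0.04) and MTCH2, a receptor for BID, (-0.17 ± 0.04) fell. VDAC2 lost its call without siYTHDC1 replicate 2 (0.07) and without siNC replicate 2 (0.06). The called share of the mitochondrial partners, 55.6%, was also near that of all genes tested.

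**Figure D4:**
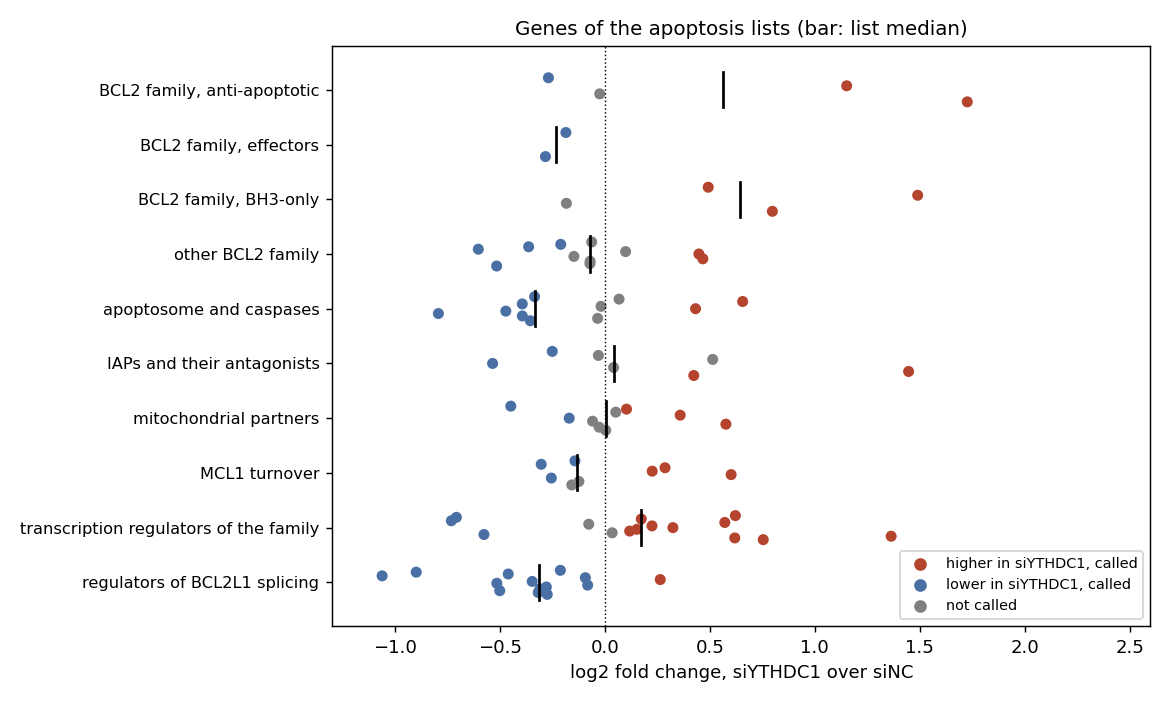
Log2 fold change (siYTHDC1 over siNC, x axis) of every tested gene in the family and in the lists of related genes, 1 point per gene and a black bar at the median of each list; red and blue mark genes called higher and lower, grey those not called. The splicing regulators lie mostly to the left, with a median of -0.31, and the transcription regulators on both sides, with a median of 0.17.

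Genes that act on the family were read from 3 further lists. Of 8 genes for turnover of the MCL1 protein, 3 rose and 3 fell (median -0.13). That is 75% called, where 53.4% of all genes tested were. GSK3B, a kinase that marks MCL1 for degradation, rose by 0.60 ± 0.04 (SE) and MARCHF5, a mitochondrial ubiquitin ligase, by 0.29 ± 0.04, while GSK3A (-0.26 ± 0.04), with 11.6% of its exonic bases under another gene on its strand, and the deubiquitinase gene USP13 (-0.30 ± 0.09) fell. HUWE1 (0.23 ± 0.03) and USP9X (-0.14 ± 0.03), named after their values were seen, are the ligase and the deubiquitinase best known to act on MCL1.

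Of 15 transcription regulators of the family 10 rose and 3 fell, with a median log2 fold change of 0.17. Among all genes tested 26.3% rose and 27.1% fell. DDIT3, the gene of CHOP, rose to 9.71 ± 1.20 CPM in siYTHDC1 libraries, against 3.77 ± 0.75 CPM in siNC libraries (SD, n = 3 each), and ATF3, a stress-response gene, rose by 0.75 ± 0.08 (SE). DDIT3 has 8.03% of its exonic bases under another gene on its strand and 31.6% opposite other genes. TP73 fell, with a change of -0.71 ± 0.08 on the log2 scale (SE; edgeR adjusted p = 2.71e-08), and TP73-AS1 lies opposite 9.36% of its exonic bases. E2F1, named after its values were seen, also fell (-0.58 ± 0.04, SE).

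Of 14 factors known to act on the splicing of BCL2L1, 13 fell and 1, RBM4, rose, with a median log2 fold change of -0.31. Over all genes tested 27.1% fell. Named after their values were seen, SF3B1 (-0.09), SRSF9 (-0.21) and PTBP1 (-0.08) fell but lost their call in some settings. SF3B1 lost it without siYTHDC1 replicate 1 or 2 or siNC replicate 2 or 3, and SRSF9 with DESeq2. PTBP1 and SF3B1 lost it with siNC replicate 2 and siYTHDC1 replicate 1 both left out. The groups overlapped in SF3B1, SRSF9 and RBM4. SRSF3 fell by 0.90, RBM10 by 0.52 and HNRNPH1 by 0.50 on the log2 scale, and 16.4% of the exonic bases of RBM10 lie opposite NDUFB11. SRSF1 fell by 1.06, with 56.6% of its exonic bases under another gene on its strand. RBM4, named after its values were seen, changed by 0.26 ± 0.09 (SE; edgeR adjusted p = 0.0161), shares 24.2% of its exonic bases with RBM14-RBM4, and lost its call without siYTHDC1 replicate 2 and without siNC replicate 3. Counts per gene do not tell the long protective products of BCL2L1 and MCL1 from their short pro-apoptotic ones, nor the isoforms of BCL2L11, so the splicing of the family was not analysed here.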

How the data were processed

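The authors deposited unnormalised counts of reads, whole numbers with a row for each Ensembl gene and a column for each of the 6 libraries. Reads were placed on hg38, per the submitters' processing notes. Aligner, counter, annotation and strand setting: not given in the sources used here. Columns were matched to sample titles by name. Gene symbols were taken from a reference list by identifier, and positions and exon lengths from GENCODE release 29. The quasi-likelihood test of edgeR 4.0.16 (R 4.3.3) was run on the counts of all 6 libraries with TMM scaling, the default low-count filter and the group as the only term, 2-sided. A gene was called at a Benjamini-Hochberg adjusted p under 0.05 over 17372 genes. SE is the log2 fold change over the root of the F statistic. Nothing says that replicates came from separate cultures, so p-values reflect only how far these libraries spread, possibly for technical reasons.

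All 10 members are named, with up to 4 called genes per related list (largest change, mean of at least 1 CPM) and the 2 nearest genes of each called member. Other genes are marked, and some genes that the rule picked are not reported here. The members and lists were chosen with earlier results of these data known. Alternatives were scaling by median ratio, by upper quartile or by totals alone, DESeq2 1.42.0, limma-voom (3.58.1), other filters, a replicate block, leaving out each library and, chosen after seeing the data, leaving out siNC replicate 2 with siYTHDC1 replicate 1. On simulated data the test missed the bars first set for the share of changed genes recovered, which low-count genes lowered. It met bars set afterwards for sign, bias, interval coverage and false calls.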

Additional observations from a re-analysis of the deposited data

How the results depend on the processing

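The 8 called family genes kept their direction and their call in all 15 other settings, with log2 fold changes of 1.62 to 1.87 for BCL2A1, 1.30 to 1.58 for HRK, 1.09 to 1.19 for BCL2L2, -0.35 to -0.20 for BAK1 and -0.27 to -0.13 for BAX. BCL2L1 was called in none of them. BCL2L11 was also called with limma-voom (-0.19; limma adjusted p = 0.0495) and without both siNC replicate 2 and siYTHDC1 replicate 1 (-0.25; edgeR adjusted p = 0.0341). YTHDC1 ran from -4.17, without siYTHDC1 replicate 1, to 0.31, without siNC replicate 2, and lost its call without siYTHDC1 replicate 2 (-1.77) and with limma-voom (-1.83); DESeq2 gave no adjusted p for it. Over all genes 8533 to 8960 were called when 1 library was left out. Among the splicing regulators 0 to 1 then rose.

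The replicate numbers did not pair the libraries: deviations from the group means correlated at 0.005, -0.007 and -0.017 for numbers 1 to 3, and with the replicate block 9227 genes and the same 8 family genes were called. With the length of the longest transcript in place of all exonic bases, MCL1 held 51.0% of the anti-apoptotic sum in siYTHDC1 libraries and 62.5% in siNC libraries, and PMAIP1 76.6% and 77.4% of the BH3-only sum. For the picked genes, the BH3-only sum over the anti-apoptotic sum was then 0.488 in siYTHDC1 and 0.349 in siNC libraries. The effector sum over the anti-apoptotic sum was 0.429 and 0.507. Other transcript lengths make up this difference by construction. HRK rests on 43 to 186 counts a library, so its size is the least precise.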
